A study of Mus musculus with 16 samples.

Results

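The hepcidin axis and the iron store of the liver were followed through 10 genes of the 57010 in the deposited expression table. The members are the hepcidin genes Hamp and Hamp2, the upstream signal Bmp6, the transferrin receptors Tfrc and Tfr2, transferrin (Trf), the ferritin chains Fth1 and Ftl1, the ferritin cargo receptor Ncoa4 and the iron exporter ferroportin (Slc40a1). They were chosen by gene name, and all 10 had a mean of at least 1 transcript-per-million unit (TPM), the level required for testing, as did 11766 genes in all.

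Liver RNA came from 16 wild-type male adult C57BL/6J mice in 4 groups of 4, sequenced after selection of poly(A) RNA. Control mice (27, 28, 29 and 30) received neither agent. Cd mice (1, 2, 5 and 6) received intraperitoneal CdCl2 at 1.25 mg/kg on each of 7 days. Se mice (39, 40, 41 and 44) ate a diet with selenomethionine at 2 ppm for 3 months, and Cd+Se mice (13, 14, 15 and 16) ate that diet and received CdCl2 for its last 7 days. No group carried a genetic change, and the Cd+Se and Se groups shared the diet. Each table column is 1 mouse, so n = 4 throughout, and each error is an SD over mice unless called an SE.

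Hepcidin is a small peptide hormone that hepatocytes release into blood. It binds ferroportin, the only known cellular iron exporter of mammals, and has it degraded, so that less iron leaves macrophages, hepatocytes and gut cells. Its transcription is raised by BMP ligands acting through SMAD proteins, which report iron load, and by interleukin-6 acting through STAT3, which reports inflammation. Iron travels in blood on transferrin and is stored in ferritin, and the iron regulatory proteins bind hairpins in ferritin, ferroportin and transferrin receptor mRNAs when iron is low. They act on translation of the former messages and on the stability of the last, so that part of this control is not visible in mRNA levels.

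Hamp (ENSMUSG00000050440, chromosome 7, 30942368 to 30944032) and Hamp2 (ENSMUSG00000056978, chromosome 7, 30922372 to 30924681) lie on the minus strand of mouse build GRCm38, 17686 bases apart. Their first annotated transcripts are 410 and 420 bases long and 92.4% identical. Reads could therefore have been split between the 2 genes by the authors' counting, and the level of either one is uncertain to that extent.

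The hairpins to which iron regulatory proteins bind are shown for the members that have them, since they mark which member mRNAs these proteins can bind. A strict search (a C, 5 bases, CAGTG and then A, C or T, and 5 bases that pair with the first 5) found the 17-base element in transcripts of 4 of the 10 members and of 222 of 21901 protein-coding genes (1.01%) in the GENCODE M21 annotation. Capitals mark the loop. The Fth1 element spans bases 93 to 109 of the first annotated transcript, the Ftl1 element bases 84 to 100 and the Slc40a1 element bases 96 to 112, all before the start codon. The 4 Tfrc elements follow the stop codon and begin at bases 3321, 3700, 3765 and 3812.
Fth1: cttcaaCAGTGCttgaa
Ftl1: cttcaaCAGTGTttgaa
Slc40a1: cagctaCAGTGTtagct
Tfrc, first: cggaagCAGTGCcttcc
Tfrc, next: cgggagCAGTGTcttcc
Tfrc, next: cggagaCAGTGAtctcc
Tfrc, last: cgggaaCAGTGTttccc

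The other members lie, on GRCm38, at chromosome 13, 38345107 to 38500302 (Bmp6), chromosome 5, 137569840 to 137587481 (Tfr2), chromosome 9, 103204001 to 103230444 (Trf) and chromosome 16, 32608920 to 32632794 (Tfrc). Fth1 lies at chromosome 19, 9980598 to 9985098, and Ftl1 at chromosome 7, 45457944 to 45459884. Ncoa4 lies at chromosome 14, 32159865 to 32179855, and Slc40a1 at chromosome 1, 45908068 to 45926523.

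The values were TPM, which divide by transcript length and sum to the same total in each library, so read depth is unknown and no counting interval can be given. The metallothionein gene Mt1, which Cd induces, averaged 116 ± 73.3 TPM in control and 4070 ± 707 TPM in Cd livers, and the hepatocyte marker Alb averaged 52100 ± 8170 TPM in control. Se mouse 40 and Cd+Se mouse 15 lay farthest from the rest of their groups, each with a root mean square distance of 0.525 on the log2 scale, against 0.321 to 0.481 for the other 14 mice. Se mouse 40 was the highest or lowest of its group for 9 of the 10 members, against 1 to 8 members for the other mice. Group differences are log2 fold changes of TPM + 1 from limma, fitted over all tested genes and all 16 mice, with Benjamini-Hochberg adjusted p-values.

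**Figure D1:**
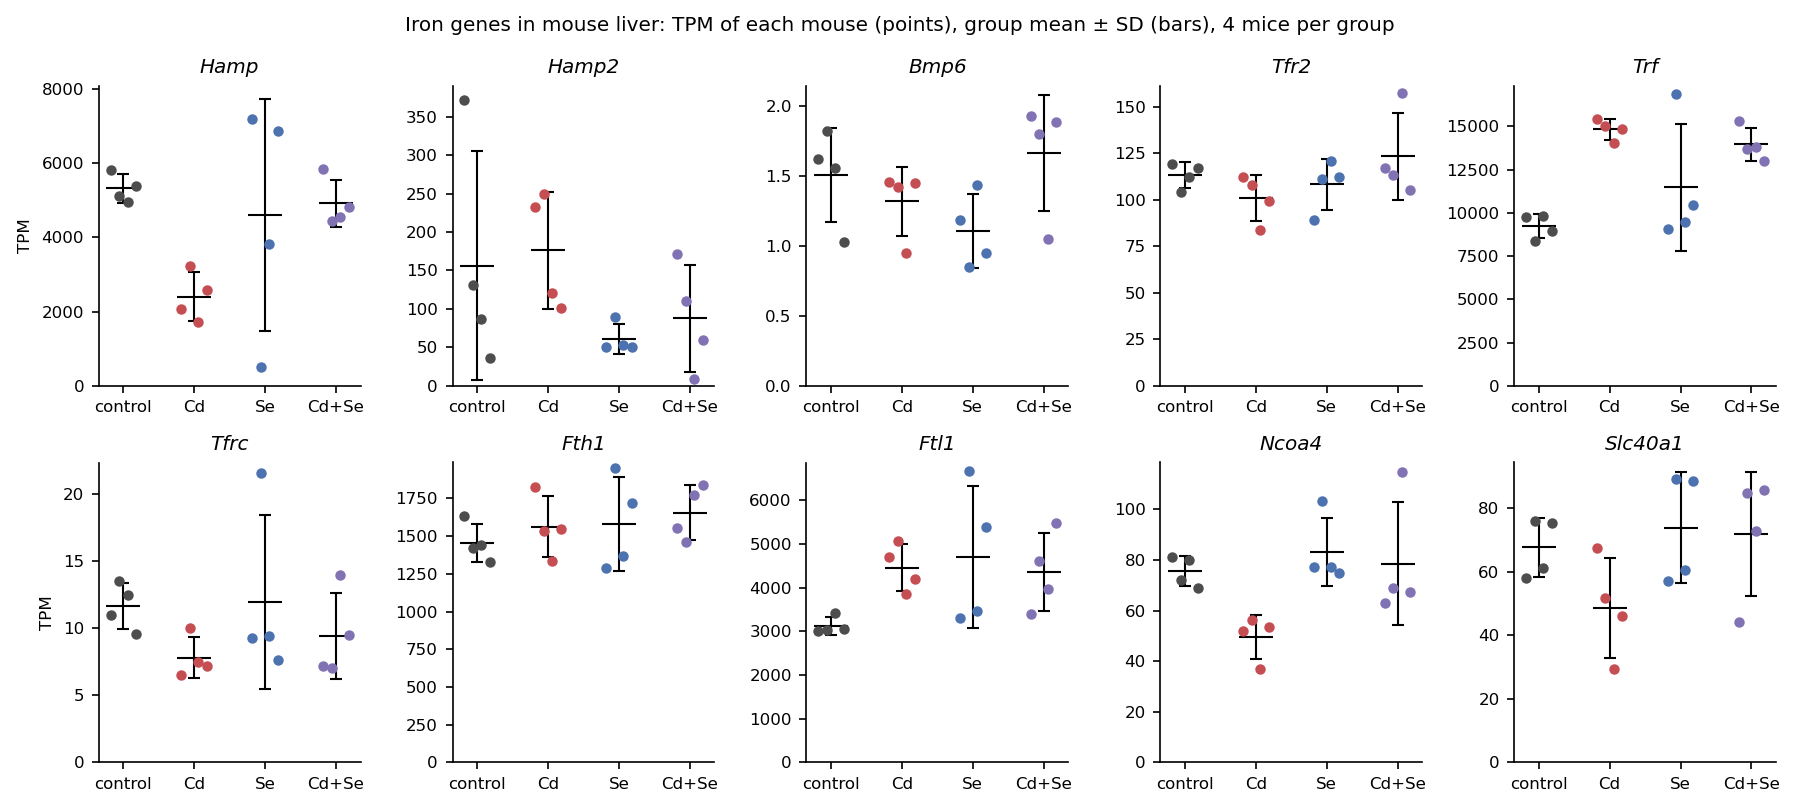
Level of each member in TPM (vertical axes, from 0) in every mouse (points) by group, with the group mean and SD (bars, 4 mice per group). All 4 Cd mice lie below all control mice for Hamp and Ncoa4 and above them for Trf and Ftl1. Se mouse 40 is the highest or lowest of its group in 9 of the 10 panels, in some of them only narrowly.

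Cd livers held less Hamp mRNA than control livers in every mouse, and Cd+Se livers more than Cd livers in every mouse. Hamp measured 5832, 5108, 4953 and 5400 TPM in control mice and 2083, 3242, 1719 and 2579 TPM in Cd mice. The Cd+Se mice were at 5839, 4446, 4564 and 4829 TPM, a range that overlaps control and lies wholly above Cd. The Se mice were at 7201, 516, 3829 and 6867 TPM, which is the widest spread of the 4 groups, and the value of mouse 40 was the lowest of all 16.

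The group means of Hamp were 5323 ± 386 in control, 2405 ± 660 in Cd, 4603 ± 3120 in Se and 4919 ± 634 TPM in Cd+Se. With all 16 mice in the fit, Cd differed from control by a log2 fold change of -1.18 (SE 0.568) with a limma adjusted p = 0.124, so it did not pass the test. The exact two-sided permutation test over the 8 mice gave p = 0.0286, the smallest that 70 arrangements allow. For Cd+Se against Cd the log2 difference was 1.06 (SE 0.568, limma adjusted p = 0.201), again with the smallest permutation p of 0.0286.

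The call for Hamp turned on Se mouse 40, although this mouse belongs to neither group of these comparisons, since all groups share 1 estimate of the spread. Without it, the limma adjusted p was 0.00098 between Cd and control and 0.00695 between Cd+Se and Cd. With only the groups compared in the fit, the limma adjusted p values were 0.0025 and 0.0494. Leaving out any other single mouse gave a limma adjusted p of 0.102 to 0.256 between Cd and control and of 0.175 to 0.39 between Cd+Se and Cd.

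**Figure D2:**
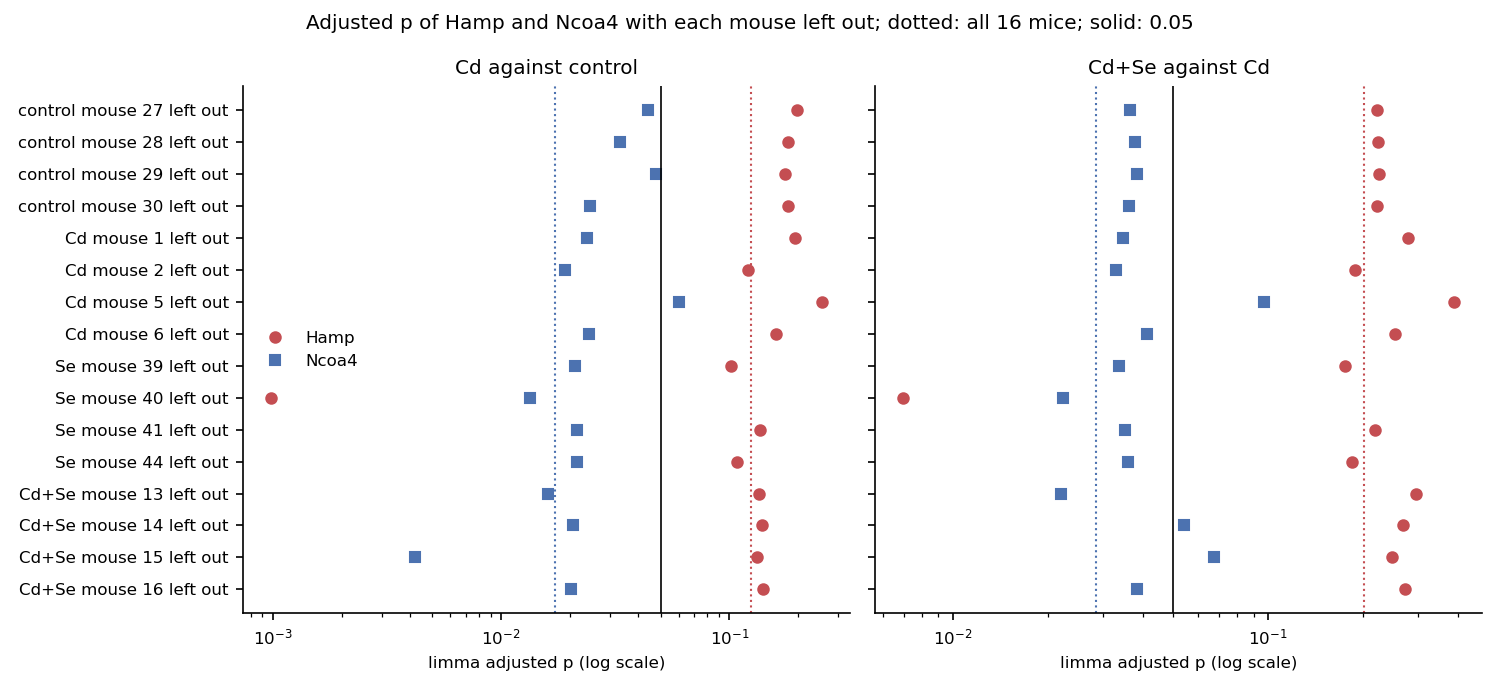
Limma adjusted p (horizontal axis, log scale) of Hamp and Ncoa4 in both comparisons that involve Cd mice, with each of the 16 mice left out in turn (vertical axis); the dotted lines give all 16 mice and the solid line 0.05. Hamp crosses 0.05 in both comparisons when Se mouse 40 is left out and with no other mouse.

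Of the 10 members, 2 were called in Cd against control, Trf upward and Ncoa4 downward, while 30.8% of all tested genes were called. In 4 members, Hamp, Trf, Ftl1 and Ncoa4, the Cd and control mice did not overlap, against 34.2% of all tested genes. The median log2 fold change was -0.14 over the members and -0.17 over all genes. Only Ncoa4 was called in Cd+Se against Cd, where 15.9% of genes were called. In that comparison 2 members, Hamp and Ncoa4, did not overlap between the groups, against 19.2% of genes, and the median log2 fold change was 0.20 over the members and 0.17 over all genes. The shares among the members were thus near or below those of all genes.

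No member was called in Cd+Se against control, where 0.484% of genes were called, or in Cd+Se against Se, where 0.714% were called. In these comparisons 2 and 1 members, respectively, had an unadjusted limma p under 0.05, which 10.9% of all genes had in each. None was called in Se against control, where the limma count over all genes was also 0 and 3.86% of genes had an unadjusted p under 0.05. That was the case for 1 member, Ftl1. The comparisons share the Cd or the control mice, so their results are not independent of one another.

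**Figure D3:**
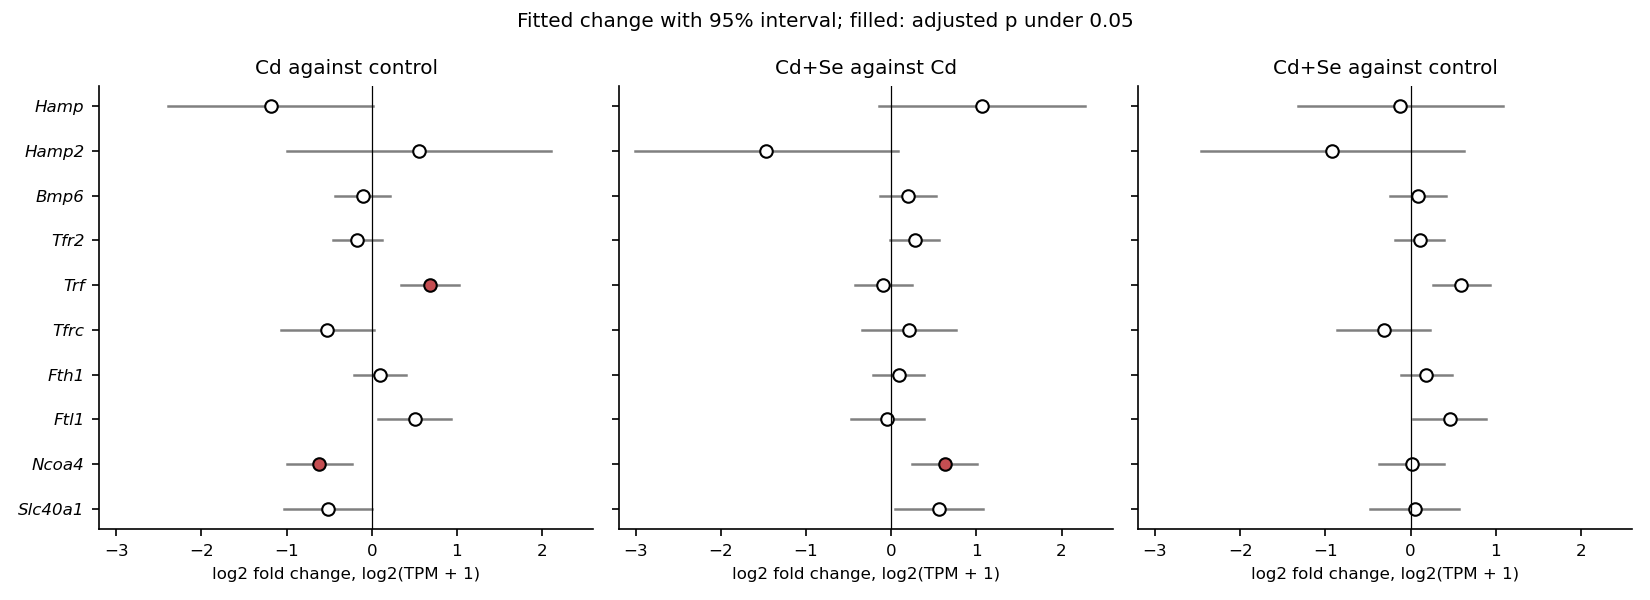
Fitted log2 fold change of TPM + 1 (horizontal axes) with its 95% interval for each member (vertical axis) in each comparison; filled points have a limma adjusted p under 0.05. Filled points stand at Trf and Ncoa4 in Cd against control and at Ncoa4 in Cd+Se against Cd, and the intervals of Hamp and Hamp2 are the widest.

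Hamp2, the second hepcidin gene of the mouse, was lower than Hamp in TPM in every mouse. It measured 372, 131, 86.4 and 35.8 TPM in control, 233, 250, 121 and 101 TPM in Cd, 50.3, 89.4, 53.1 and 50.7 TPM in Se, and 172, 110, 9.61 and 60.1 TPM in Cd+Se mice. The groups overlapped in all 5 comparisons tested. No Hamp2 difference passed the test, and the log2 fold change was 0.55 (SE 0.729, limma adjusted p = 0.597) in Cd against control and -1.47 (SE 0.729, limma adjusted p = 0.17) in Cd+Se against Cd. Single mice moved these values: the former ranged from 0.0154 (without control mouse 30) to 1.13 (without control mouse 27) and the latter from -1.98 (without Cd+Se mouse 13) to -0.641 (without Cd+Se mouse 15).

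The share of Hamp2 in the sum of both hepcidins was 5.99, 2.51, 1.71 and 0.659% in control mice, 10.04, 7.16, 6.58 and 3.77% in Cd mice and 2.86, 2.42, 0.21 and 1.23% in Cd+Se mice. Its median was 6.87% in Cd and 1.82% in Cd+Se, which did not overlap (exact two-sided permutation p = 0.0286), and 2.11% in control, which overlapped Cd (p = 0.0571 by the same exact test). The former p is the smallest that the design allows, before any adjustment over the comparisons. The share depends on both genes: Hamp averaged 2405 TPM in Cd and 4919 TPM in Cd+Se, while Hamp2 itself overlapped between these groups and was not called. Among Se mice the share was 14.8% in mouse 40 and 0.693 to 1.37% in the others. With Hamp and Hamp2 summed, which is insensitive to reads being split between them, the log2 difference was -1.12 between Cd and control and 0.98 between Cd+Se and Cd, each with an exact permutation p = 0.0286.

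**Figure D4:**
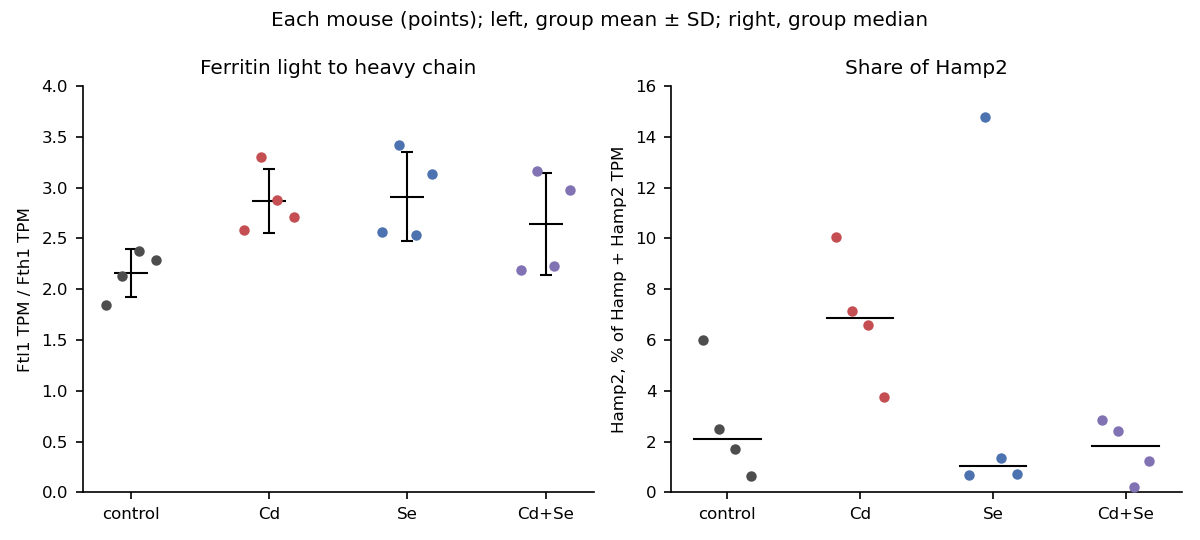
Left, the ratio of Ftl1 to Fth1 TPM, with the group mean and SD; right, Hamp2 as a percent of Hamp plus Hamp2 TPM, with the group median; points are mice. All Cd and all Se ratios lie above the highest control ratio of 2.38, and all Cd shares of Hamp2 lie above the highest Cd+Se share of 2.86%.

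Among the upstream signals, Bmp6, the ligand that liver endothelial cells release as iron stores grow, was close to the detection level set for testing. It measured 1.62, 1.82, 1.56 and 1.03 TPM in control, 1.46, 1.42, 0.95 and 1.45 TPM in Cd, 1.19, 0.85, 1.44 and 0.95 TPM in Se, and 1.93, 1.8, 1.05 and 1.89 TPM in Cd+Se mice. The groups overlapped, and Cd differed from control by -0.11 on the log2 scale (95% interval -0.44 to 0.22). The low Bmp6 value of Cd+Se mouse 15 stood beside the lowest summed level of 11 sinusoidal endothelial markers in its group, 91.6 TPM against 156 to 166 TPM in the other 3 mice. Control mouse 30 (125.5 TPM) and Cd mouse 5 (94.6 TPM) also had the lowest Bmp6 and the lowest sum of their groups. Se mouse 40, the lowest in Bmp6, had instead the highest sum of its group, 130 TPM. The part of these markers in the Bmp6 values was not tested. In bulk tissue, fewer cells of a type and less RNA per cell cannot be told apart.

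Tfr2, a hepatocyte receptor that senses iron-loaded transferrin and promotes hepcidin, changed in no comparison that passed the test. It measured 120, 104, 112 and 117 TPM in control and 112, 108, 84 and 99.5 TPM in Cd mice. It measured 89, 111, 121 and 112 TPM in Se and 117, 114, 158 and 105 TPM in Cd+Se mice. The groups overlapped, and the 95% interval of its log2 fold change was -0.46 to 0.12 between Cd and control and -0.01 to 0.57 between Cd+Se and Cd.

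The remaining genes of the BMP and SMAD arm changed in both directions after Cd. Of 20 tested genes, 1 rose and 9 fell in Cd against control, against 5.82% of all genes higher and 24.9% lower, and the median log2 fold change was -0.42. Fgl1, which encodes a circulating antagonist of BMP ligands that lowers hepcidin, rose from 495 ± 230 to 1050 ± 153 TPM (log2 fold change 1.18, limma adjusted p = 0.0293). Tmprss6, a protease that also restrains hepcidin, fell from 109 ± 4.51 to 70 ± 14.4 TPM (-0.65, limma adjusted p = 0.00287). Receptors and mediators of the pathway fell as well, among them the receptors Acvr1 (-0.74), Bmpr2 (-0.62) and Bmpr1a (-0.54), the co-receptor Neo1 (-0.74) and the shared mediator Smad4 (-0.60).

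With Se added to Cd, 5 of these 20 genes rose relative to Cd, Neo1, Bmpr2, Tmprss6, Smad4 and Bmpr1a, and none fell, against 13.6% of all genes higher and 2.35% lower. Tmprss6 was at 101 ± 6.77 TPM in Cd+Se, and Fgl1 stayed at 1070 ± 502 TPM. With only the 2 groups in the fit, none of the 20 genes was called. Among genes that BMP signalling induces, Smad6, an inhibitor of the pathway, fell from 1.29 ± 0.244 TPM in control to 0.595 ± 0.0988 TPM in Cd (log2 fold change -0.52, limma adjusted p = 0.0152), a call lost when libraries were centred on their medians. Id1, Atoh8 and Smad7 were not called, with Atoh8 at 5.55 ± 0.66 TPM in control and 9.49 ± 1.5 TPM in Cd, Id1 at 6.88 ± 0.905 TPM in control and 9.5 ± 3.02 TPM in Cd, and Smad7 at 2.96 ± 0.951 and 1.93 ± 0.428 TPM. Atoh8 was called higher with quantile normalisation, with median centring, with only these groups fitted, and without Se mouse 40 and Cd+Se mouse 15.

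In the interleukin-6 and STAT3 arm, 2 of 11 tested genes rose and 2 fell in Cd against control, against 5.82% of all genes higher and 24.9% lower. The acute-phase genes Lcn2 (log2 fold change 3.21, limma adjusted p = 0.0112) and Saa2 (3.36, limma adjusted p = 0.0496) rose, whereas Il6st, the signalling subunit of the interleukin-6 receptor, fell from 21.6 ± 1.35 to 10.6 ± 2.19 TPM (limma adjusted p = 0.000533) and the kinase Jak1 fell by 0.75 on the log2 scale. Relative to Cd, the Cd+Se livers had more Il6st (0.89), Jak1 (0.70) and Jak2 (0.47), all called, and Lcn2 and Saa2 were not called. With only the groups compared in the fit, none of the 11 genes was called there, and Jak2 was also lost with quantile normalisation and with median centring. The Saa2 call in Cd against control was lost with quantile normalisation and without Se mouse 40. The summed level of the arm's genes ranged from 216 to 9130 TPM among control mice, and the highest value came from mouse 27, which also had the most Hamp and Hamp2 of the control mice. Cd+Se mouse 13 likewise had the highest sum (21680 TPM) and the most Hamp of its group. In contrast, Cd mouse 5 had the highest sum of its group (13520 TPM) with the least Hamp (1719 TPM). Se mouse 41, with the highest Se sum (4434 TPM), had neither the most nor the least Hamp. The part of this arm in the hepcidin values was not tested.

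Transferrin, the plasma carrier of iron, rose in Cd livers and remained above control in every Cd+Se mouse. Trf measured 9789, 8380, 9830 and 8938 TPM in control, 15407, 15044, 14018 and 14842 TPM in Cd, and 15314, 13680, 13834 and 12977 TPM in Cd+Se mice. Neither Cd-treated group overlapped control, and the 2 Cd-treated groups overlapped each other. The log2 fold change was 0.69 (SE 0.159, 1.61-fold, limma adjusted p = 0.00491) in Cd against control and -0.09 (95% interval -0.43 to 0.25) in Cd+Se against Cd.

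For Cd+Se against control the Trf difference was 0.60 (SE 0.159, exact permutation p = 0.0286), with no overlap, against 8.86% of all genes without overlap, yet the limma adjusted p was 0.125. Without Se mouse 40 that limma adjusted p was 0.00693. The Se mice were at 9057, 16878, 9482 and 10454 TPM, and mouse 40 held the highest Trf level of all 16 mice. The call in Cd against control held in all 16 fits that left out 1 mouse and was lost with quantile normalisation (limma adjusted p = 0.122) and without the filter on low genes (0.0508).

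Tfrc, the receptor through which most cells take up transferrin iron, measured 11, 13.5, 12.4 and 9.55 TPM in control and 6.5, 10.02, 7.5 and 7.19 TPM in Cd mice. The 2 groups overlapped at a single Cd mouse, number 2, and the log2 fold change was -0.53 (SE 0.259, limma adjusted p = 0.133). The Cd+Se mice, at 7.17, 7.06, 14 and 9.49 TPM, overlapped both groups. Se mouse 40 was at 21.6 TPM, against 7.62 to 9.4 TPM in the other Se mice. Without that mouse the limma adjusted p for Cd against control was 0.0403.

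Of 15 further genes of iron and heme-iron uptake tested, 2 rose and 4 fell in Cd against control, shares to be set beside the 5.82% and 24.9% of all genes. The scavengers of hemoglobin and heme in plasma, Hp (log2 fold change 0.82) and Hpx (0.77), rose. Cd163, the macrophage receptor for the haptoglobin and hemoglobin complex, fell from 6.15 ± 0.843 to 0.212 ± 0.137 TPM (-2.56, limma adjusted p = 1.86e-05). Steap4, a metal reductase, fell by 1.01 on the log2 scale, Slc39a14, the importer of iron not bound to transferrin, fell by 0.84, and Prnp fell by 0.62. The Hpx call was lost with quantile normalisation, and the Prnp call with quantile normalisation and with median centring.

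Of the 15 uptake genes, 3 rose in Cd+Se against Cd, Steap4 (1.33), Slc39a14 (0.85) and Slc11a2 (0.52), the last an endosomal iron transporter, and none fell, against 13.6% of all genes higher. With only these groups fitted none of the 15 was called, and Slc11a2 was also lost with quantile normalisation, with median centring, and without Se mouse 40 and Cd+Se mouse 15. Slc39a14 averaged 84.5 ± 7.49 TPM in control, 47.2 ± 8.97 TPM in Cd and 88 ± 32 TPM in Cd+Se. Cd163 averaged 0.535 ± 0.191 TPM in Cd+Se and was called lower there than in control (log2 fold change -2.22).

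The 2 ferritin chains differed in their values. Fth1, the heavy chain, which oxidises the iron that enters the shell, measured 1632, 1421, 1442 and 1328 TPM in control, 1826, 1536, 1336 and 1551 TPM in Cd, 1286, 1954, 1368 and 1720 TPM in Se, and 1554, 1460, 1773 and 1840 TPM in Cd+Se mice. All groups overlapped, and the 95% interval of the Cd difference from control was -0.20 to 0.40 on the log2 scale. With libraries centred on their medians, Fth1 was called higher in Cd (0.317, limma adjusted p = 0.0266). Ftl1, the light chain, which promotes mineral formation, measured 3003, 3024, 3426 and 3043 TPM in control and 4711, 5063, 3853 and 4204 TPM in Cd mice.

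Every Cd mouse lay above every control mouse for Ftl1 (exact permutation p = 0.0286), with a log2 fold change of 0.51 (SE 0.202, limma adjusted p = 0.0671). Ftl1 was at 3295, 6676, 3463 and 5387 TPM in Se mice and at 3401, 4617, 3963 and 5476 TPM in Cd+Se mice, which overlapped control. Its log2 difference from control was 0.53 in Se (limma adjusted p = 1, the unadjusted limma value being 0.0186) and 0.46 in Cd+Se (limma adjusted p = 0.414). Without Se mouse 40 the Se difference was 0.339. Ftl1 passed the threshold for Cd against control without Se mouse 40 (limma adjusted p = 0.0297), with only these groups fitted (0.0127) and when libraries were centred on their medians (0.0035).

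The ratio of light to heavy chain TPM, which does not depend on how a library is scaled, was 1.84, 2.13, 2.38 and 2.29 in control mice, 2.58, 3.3, 2.88 and 2.71 in Cd, 2.56, 3.42, 2.53 and 3.13 in Se, and 2.19, 3.16, 2.23 and 2.98 in Cd+Se. The Cd and the Se mice lay wholly above control, by 0.41 and 0.42 on the log2 scale, each with an exact two-sided permutation p = 0.0286. Cd+Se mice overlapped control (0.28 on the log2 scale, exact permutation p = 0.2) and Cd (-0.13, exact permutation p = 0.429). This family held 5 group comparisons, and the smallest p that the design allows is 0.0286 before any adjustment.

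The ferritin light chain has processed copies in the genome that can share its reads. The transcripts of Ftl1 and its copy Ftl1-ps1 are 968 and 491 bases long. They were 99.5% identical only in the part where they align, with 207 identical bases and 1 mismatch. Ftl1-ps1 averaged 7.22 ± 1.39 TPM in control, 18.3 ± 3.45 TPM in Cd, 10.7 ± 4.27 TPM in Se and 10.5 ± 2.25 TPM in Cd+Se mice. It rose in Cd against control (log2 fold change 1.23, limma adjusted p = 0.0015) and fell in Cd+Se against Cd (-0.74, limma adjusted p = 0.0409). The 3 Ftl copies together made 0.179 to 0.495% of the Ftl1 sum, so the Ftl1 values above hardly depend on them, while the low values of the copy are uncertain. The Fth1 copies made at most 0.0371%.

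Ncoa4, the receptor that carries ferritin to lysosomes so that its iron is released, fell in Cd livers and was higher in Cd+Se livers. It measured 81.1, 72.2, 80.2 and 69.1 TPM in control, 52, 56.1, 36.9 and 53.4 TPM in Cd, 77.4, 103, 77.1 and 74.9 TPM in Se, and 63.1, 69, 115 and 67.5 TPM in Cd+Se mice. The Cd mice lay below all other mice. The log2 fold change was -0.61 (SE 0.179, limma adjusted p = 0.0172) in Cd against control and 0.63 (SE 0.179, limma adjusted p = 0.0285) in Cd+Se against Cd.

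The Ncoa4 calls rested on single mice in part. Without Cd mouse 5 the limma adjusted p was 0.0605 between Cd and control and 0.097 between Cd+Se and Cd. The second comparison also missed the threshold without Cd+Se mouse 14 (0.054) or Cd+Se mouse 15 (0.0676, with a log2 difference of 0.43) and with only these groups fitted (0.105). With libraries centred on their medians, the limma adjusted p was 0.0556 between Cd and control and 0.0579 between Cd+Se and Cd.

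Of 17 tested genes for export, iron oxidation and handling inside the cell, 2 rose and 2 fell in Cd against control, against 5.82% of all genes higher and 24.9% lower, with a median log2 fold change near 0. Hmox1, which frees iron from heme, rose from 9.85 ± 1.23 to 18 ± 1.64 TPM (log2 fold change 0.81, limma adjusted p = 0.0211), and it rose further in Cd+Se, at 42.5 ± 16.8 TPM (1.11 against Cd, limma adjusted p = 0.0122). The iron-sulfur cluster enzyme Nfs1 (-0.55) and the autophagy receptor Tax1bp1 (-0.36), a partner in ferritin turnover, fell in Cd, the latter not with median centring. Between Cd and Cd+Se, Hmox1, Nfs1 and Flvcr1 rose. With only those groups fitted none of the 17 genes was called, and Nfs1 and Flvcr1 were also lost with quantile normalisation, with median centring, and without Se mouse 40 and Cd+Se mouse 15.

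Among 10 tested genes around the iron regulatory proteins, only Aco1 was called in the fit of all 16 mice without further scaling. It was lower in Cd against control, as were 24.9% of all genes, and higher in Cd+Se against Cd, as were 13.6%. In Cd against control, 1 gene was called higher with quantile normalisation or median centring. In Cd+Se against Cd, 1 gene was called lower with quantile normalisation and 2 with median centring. Aco1 encodes the cytosolic aconitase that becomes iron regulatory protein 1 when it loses its iron-sulfur cluster. It fell from 62.3 ± 2.57 TPM in control to 37.1 ± 4.26 TPM in Cd (log2 fold change -0.74, limma adjusted p = 0.00038) and was higher in Cd+Se, at 50.2 ± 6.66 TPM (0.42 against Cd, limma adjusted p = 0.0204). The latter call was lost with only these groups fitted and with median centring. Ireb2, iron regulatory protein 2, averaged 24.2 ± 0.828 TPM in control and 19.1 ± 4.16 TPM in Cd (limma adjusted p = 0.113).

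Ferroportin mRNA was lower on average in Cd livers, but the groups overlapped. Slc40a1 measured 58.1, 76, 61.3 and 75.6 TPM in control, 67.7, 51.8, 29.5 and 46.1 TPM in Cd, 57, 89.3, 60.7 and 88.7 TPM in Se, and 44.2, 84.8, 72.9 and 85.9 TPM in Cd+Se mice. The log2 fold change was -0.51 (SE 0.246, limma adjusted p = 0.122) in Cd against control and 0.56 (SE 0.246, limma adjusted p = 0.123) in Cd+Se against Cd. Each passed the threshold when 1 mouse was left out, Cd mouse 1 in the former (limma adjusted p = 0.0463) and Cd+Se mouse 13 in the latter (0.0348). Without Cd mouse 5 they shrank to -0.299 (limma adjusted p = 0.372) and 0.349 (0.365).

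Ferroportin is abundant in Kupffer cells, the resident macrophages of the liver, which recycle iron from red cells, and their markers moved with Cd. Of 11 tested Kupffer markers, 10 fell in Cd against control, against 24.9% of all genes, and Clec1b was the exception. The median log2 fold change was -1.24 over these markers and -0.17 over all genes. With quantile normalisation or median centring 9 markers fell. All 11, Clec1b included, fell with only these groups fitted, with rescaling over nuclear protein-coding genes, or without Se mouse 40. Their summed level was 198 to 238 TPM in control, 81.8 to 119 TPM in Cd, 132 to 258 TPM in Se and 80.3 to 149 TPM in Cd+Se mice, and none of the 11 was at 0 in any library.

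In Cd+Se against control, 4 Kupffer markers fell, Clec4f, Vsig4, Timd4 and Folr2, against 0.17% of all genes, and 1 marker, Adgre1, rose in Cd+Se against Cd, against 13.6% of all genes. With only the groups compared, the 4 markers became 2, Timd4 and Vsig4, and the Adgre1 call was lost, as it was with median centring. Slc40a1 averaged 72 ± 19.4 TPM in the Cd+Se livers, where the summed markers averaged 123 ± 30.3 TPM, and 67.7 ± 9.4 TPM in control livers, where they averaged 219 ± 19.6 TPM. The part of the Kupffer markers in the Slc40a1 and Cd163 values was not tested.

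**Figure D5:**
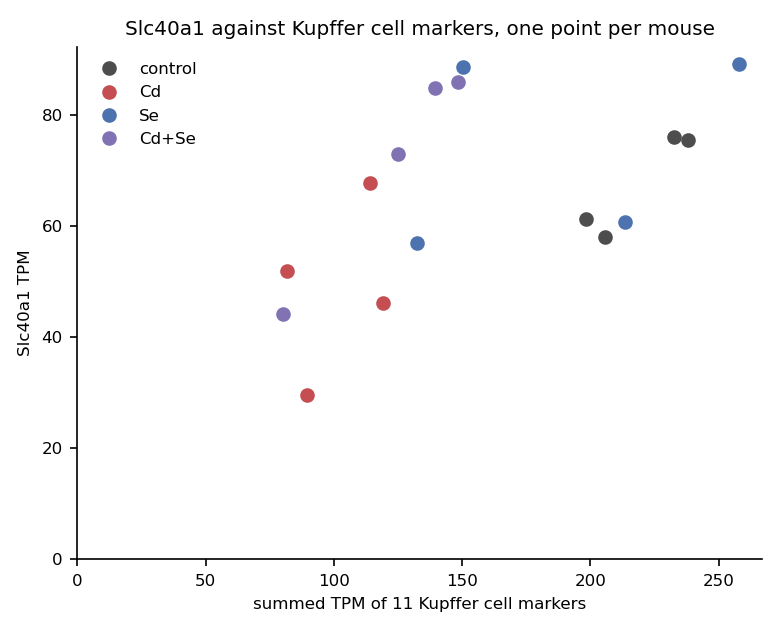
Slc40a1 level in TPM (vertical axis) against the summed TPM of 11 Kupffer cell markers (horizontal axis), 1 point per mouse, coloured by group. The control sums, 198 to 238 TPM, lie to the right of all Cd sums, 81.8 to 119 TPM, while the Cd+Se mice combine low sums with Slc40a1 levels of 44.2 to 85.9 TPM.

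Markers of other cells were examined beside the members. None of 5 tested erythroid genes was called in Cd against control, and their summed level averaged 1114 ± 443 TPM in control and 1044 ± 256 TPM in Cd. Of 5 tested neutrophil and monocyte genes, 4 rose in Cd against control, against 5.82% of all genes. Their summed level was 14 ± 4.88 TPM in control, 40 ± 4.5 TPM in Cd and 58.8 ± 14.9 TPM in Cd+Se. Of 11 endothelial markers 1 rose and 4 fell, of 7 stellate cell markers 2 fell, and of 10 hepatocyte markers only Cps1 fell. The share of all genes that fell was 24.9%. With quantile normalisation, 1 endothelial and 4 hepatocyte markers fell. With median centring, 1 endothelial, 1 stellate and 1 hepatocyte marker fell, and 2 hepatocyte markers rose. The part of these cell markers in the member values was not tested.

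The question of whether dietary Se altered the response to Cd was put to each member as an interaction, the Cd effect under Se minus the Cd effect without it. No member was called, against 1.04% of all genes. Hamp had the lowest unadjusted p, with a log2 interaction of 1.82 (SE 0.803, 95% interval 0.12 to 3.52, limma unadjusted p = 0.0375, limma adjusted p = 0.206). Without Se mouse 40 it was 0.952 (limma adjusted p = 0.0789). It was 0.50 for Ncoa4 (limma adjusted p = 0.264), which was 0.307 without Cd+Se mouse 15, and -0.57 for Ftl1 (limma adjusted p = 0.258). In the pathway lists Il6st (0.99, limma adjusted p = 0.0453) and Steap4 (1.91, limma adjusted p = 0.0176) were the 2 genes called.

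The genes most like Hamp and Tfrc were sought by correlating deviations from group means over the 16 libraries, as a description. For Hamp they were Sult2a8 (Pearson r 0.931, Spearman rho 0.603), Mup21 (0.914 and 0.524), Mup3 (0.894 and 0.559), Mup16 (0.889 and 0.562) and Mup9 (0.869 and 0.329). Mup genes are near-identical copies, so their separate levels are uncertain. Without the 2 mice farthest from the Hamp median, Se mice 40 and 39, the Pearson r values were 0.279 to 0.648, so the likeness rested largely on those mice.

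For Tfrc the genes were Usp20 (Pearson r 0.891, Spearman rho 0.721), Tmc7 (0.873 and 0.812), Gsk3b (0.856 and 0.762), Btg3 (0.852 and 0.691) and Spg20 (0.846 and 0.729). Without Se mouse 40 and Cd+Se mouse 15 the Pearson r values were 0.601 to 0.749.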

How the data were processed

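The deposited table gives TPM per Ensembl gene for 16 mice, 1 column each. Per the labels, the authors made these TPM values with fastp, HISAT2 and StringTie, whose versions are not given in the sources used here. The labels name the build GRCh38, although the gene identifiers are those of mouse. Titles list 2 replicates per mouse, and whether their reads were pooled is not stated. Columns sum to 999998.83 to 1000001.16 TPM, depth is unknown, and no column was left unmapped.

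From these values, log2(TPM + 1) was fitted with limma 3.58.1 (R 4.3.3) over the 11766 genes averaging 1 TPM or more, with 1 mean per group, a mean-variance trend, and Benjamini-Hochberg adjustment over all of them at 0.05. The study's methods name no test for the RNA-seq table. Single values had exact two-sided permutation tests. The fit was tested on simulated data. Python 3.11.15, numpy 2.4.6, scipy 1.17.1 and matplotlib 3.10.9 served for the rest. Positions and transcript sequences come from GENCODE M21. Some items are not reported here.

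Named genes were the 10 members, in each pathway list up to 6 called genes with the largest log2 fold change per comparison, the 5 genes most like Hamp and Tfrc, ferritin copies and Mt1. Bmpr1a and Smad6 in Cd against control, the uncalled Id1, Atoh8, Smad7 and Ireb2, and the cell markers Alb, Cps1, Clec1b, Adgre1, Clec4f, Vsig4, Timd4 and Folr2 were named after their values were seen. The members and lists were chosen with earlier results of these data known. Alternatives were a pseudocount of 0.1, a minimum mean of 5 TPM or none, quantile normalisation, centring on medians, rescaling over nuclear protein-coding genes, only the groups compared, no mean-variance trend, near copies summed, each mouse left out, and, chosen after seeing the data, Se mouse 40 and Cd+Se mouse 15 left out together.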

Additional observations from a re-analysis of the deposited data

Results flagged for a closer look

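A gap between the highest or lowest mouse and the rest of its group of 4 was marked when its share of the group's range was above Dixon's critical value at 95%. Of 92 groups looked at, 9 were marked, and chance gives about 4.6. Se mouse 40 stood apart for Hamp2 (89.4 TPM against 50.3 to 53.1 TPM, gap 0.928), Tfrc (21.6 against 7.62 to 9.4 TPM, gap 0.872) and Ncoa4 (103 against 74.9 to 77.4 TPM, gap 0.912). Cd+Se mouse 15 stood apart for Bmp6 (1.05 against 1.8 to 1.93 TPM, gap 0.852), Ncoa4 (115 against 63.1 to 69 TPM, gap 0.886) and the summed endothelial markers (91.6 against 156 to 166 TPM, gap 0.876). Cd mouse 5 stood apart for Bmp6 (0.95 against 1.42 to 1.46 TPM, gap 0.922) and control mouse 29 for Ftl1 (3426 against 3003 to 3043 TPM, gap 0.905). Control mouse 27 stood apart for the summed genes of the interleukin-6 and STAT3 arm (9130 against 216 to 1268 TPM, gap 0.882). No cause was tested.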

How the results depend on the processing

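Depth is unknown and each group has 4 mice, so small differences are not resolved. No paired analysis was possible because the mouse numbers differ between groups. The cause of the changes below was not tested.

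Cd lowered more genes than it raised in TPM (81.1% of calls), but quantile normalisation gave 57.1% and median centring 44.4%; for Cd+Se against Cd the lower share moved from 14.7 to 43.7 and 57.6%. The median of all genes in Cd against control moved from -0.17 to -0.01 and 0.05.

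Members called in Cd against control numbered 2, and 1 without the filter or with quantile normalisation, 3 with median centring (Fth1, Ftl1 and Trf, all higher) or rescaling (Ftl1, Trf and Ncoa4), 5 with only the groups compared or without Se mouse 40 and Cd+Se mouse 15, and 1 (without Cd mouse 5) to 5 (without Se mouse 40) with a mouse left out. The log2 fold change turned for Bmp6 (0.00582 quantile, 0.112 centred), Tfr2 (0.0479 centred) and Fth1 (-0.0782 quantile, while centred it was called at 0.317).

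In Cd+Se against Cd, 1876 genes were called, and 1131 without the filter, 66 with only these groups and 712 (without Cd+Se mouse 14) to 2164 (without Se mouse 40) with a mouse left out. Members called were 1, and 0 without the filter or centred, 2 without both mice, and 0 to 2 with a mouse left out. Bmp6 turned to -0.00101 (centred), Trf to 0.20 (quantile), Fth1 to -0.11 (centred), and Ftl1 ranged from -0.162 to 0.0671.

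In Cd+Se against control, 57 genes were called, and 26 at a minimum of 5 TPM, 104 quantile, 101 centred, 137 rescaled, 18 with only these groups, 132 without both mice and 26 (without control mouse 29) to 103 (without Cd+Se mouse 15) with a mouse left out. Members called were 0, and 1 (Trf) centred or without both mice, and 0 to 1 with a mouse left out. Tfr2 turned to -0.0163 without both mice, and Ncoa4 to -0.00265 (rescaled) and -0.18 (both mice). With a mouse left out, Bmp6 ranged from -0.013 to 0.207, Tfr2 from -0.0163 to 0.176, Ncoa4 from -0.181 to 0.103 and Slc40a1 from -0.0497 to 0.265.

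In Se against control, 0 genes were called, and 0 to 2 (without Se mouse 41) with a mouse left out. Without both mice Hamp was 0.11 and Fth1 -0.00461. With a mouse left out, Hamp ranged from -1.15 to 0.11, Tfr2 from -0.125 to 0.0205, Tfrc from -0.368 to 0.0947 and Fth1 from -0.00461 to 0.20.

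In Cd+Se against Se, 84 genes were called, and 31 at a minimum of 5 TPM, 138 rescaled, 11 with only these groups, 208 without both mice and 28 (without Se mouse 44) to 193 (without Cd+Se mouse 15) with a mouse left out. Members called were 0, and 1 without both mice and 0 to 1 with a mouse left out. Without both mice Hamp was -0.20, Hamp2 1.01, Ftl1 0.16 and Slc40a1 0.0237; Hamp2 was 0.0113 quantile and 0.0203 centred and Fth1 -0.0233 quantile. With a mouse left out, Hamp ranged from -0.23 to 1.03, Hamp2 from -0.53 to 0.81, Tfrc from -0.441 to 0.0525, Fth1 from -0.0119 to 0.189, Ftl1 from -0.22 to 0.12 and Slc40a1 from -0.17 to 0.16.

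For the interaction, 122 genes were called, and 26 without the filter, 524 quantile, 731 centred, 767 rescaled, 312 without both mice and 2 (without control mouse 29) to 348 (without Se mouse 40) with a mouse left out. Hamp2 was 0.46 and Fth1 0.057 without both mice, and Fth1 0.0549 quantile. With a mouse left out, Hamp2 ranged from -1.14 to 0.26 and Fth1 from -0.109 to 0.0918.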
